A study of Mus musculus with 24 samples.

Results

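RNA levels of p53 and 9 genes that it directly activates were examined in mouse embryonic fibroblasts (MEFs) that lack increasing numbers of histone H3 lysine 9 (H3K9) methyltransferases (KMTs). The 10 genes were taken by symbol as *Trp53*, *Cdkn1a*, *Trp53inp1*, *Mdm2*, *Ccng1*, *Phlda3*, *Eda2r*, *Zmat3*, *Bax* and *Bbc3*. They are 10 of 47937 gene entries in the count table, and all 10 were among the 18565 genes that passed the filter on low counts. Levels are described in all 8 conditions, and the line that lacks *Eset1*, *Eset2*, *G9a* and *Glp* (*E1E2 G9Gl*) was compared with each other mutant condition gene by gene.

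Total RNA was sequenced in 24 libraries, 3 for each condition. Every line descends from 1 MEF clone with a conditional *Eset1* allele and a Cre recombinase that is activated by 4-hydroxytamoxifen (4-OHT). WT cells are that clone without 4-OHT, and *E1* cells are the same clone after 4-OHT (*Eset1* KO). *E2* is a clone derived from it with an *Eset2* mutation, kept without 4-OHT, and *E1E2* is the same *Eset2* clone after 4-OHT. *E1 S1S2* lacks *Eset1*, *Suv39h1* and *Suv39h2*. Its descendant *6KO1* lacks in addition *Eset2*, *G9a* and *Glp*. *E1E2 G9Gl* was derived from the *Eset2* clone by mutation of *G9a* and *Glp*, and *6KO2* was derived in turn from it by mutation of *Suv39h1* and *Suv39h2*. These last 4 conditions are all after 4-OHT. The treatment field of the labels gives 1 uM 4-OHT for every sample, whereas the titles mark WT and *E2* as controls, and the titles were followed. Each genotype with mutations beyond *Eset1* is a single clone, so that genotype and clone cannot be told apart. According to the paper, mutated lines later received another inducible Cre construct with puromycin resistance and were grown under puromycin. It does not say whether the parental clone was treated in the same way. The part of this step in the differences between clones was not tested. *E1* shares its clone with WT, and *E1E2* shares its clone with *E2*. In these pairs the loss of *Eset1* cannot be told apart from 4-OHT itself. The labels do not say that replicates came from separate cultures or days, and the p-values measure the spread between these libraries.

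p53 is a transcription factor that is kept low in unstressed cells because Mdm2, an E3 ubiquitin ligase, marks it for degradation. DNA damage and other stresses stabilise the protein, so its activity is set mainly after translation and is usually read from the RNA of its targets. These targets stop the cell cycle (*Cdkn1a*, which encodes p21), feed back on p53 (*Mdm2*, *Ccng1*) or promote cell death (*Bax*, *Bbc3*), and in fibroblasts p53 signalling limits growth and drives senescence.

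Libraries held 19541909 to 31489070 counts on genes. The KMT genes were mostly at lower RNA levels where they were mutated, with *Ehmt2* (*G9a*) at 937 to 1041 normalised counts in *E1E2 G9Gl* against 4060 to 4384 in *E1E2*. *Suv39h2* went the other way, at 1549 to 1850 in *E1 S1S2* against 929 to 1095 in WT, and at 475 to 556 in *6KO2* against 355 to 370 in *E1E2 G9Gl*, so its RNA level is no check of these labels. Lower levels than in WT also occurred without mutation. *Setdb2* (*Eset2*) held 474 to 519 in *E1 S1S2* against 720 to 822 in WT. *Suv39h1* held 1958 to 2063 in *E1E2 G9Gl* against 2736 to 2849 in WT. *Ehmt2* held 2090 to 2292 in *6KO2*, which carries the same *G9a* mutation as *E1E2 G9Gl*. *Setdb1* (*Eset1*), at 1187 to 1267 in *E1E2* and 1018 to 1398 in *E2*, did not separate these conditions, which are therefore told apart here by their labels. Normalised counts are counts scaled to the mean library with TMM factors. WT replicate 2 stood apart from the other WT libraries, with a chi-square per gene of 57 to 68.3 against them, where other pairs of replicates had 2.24 to 25.2, and values without it are given beside the results it changed. Of 10 fibroblast markers 9 were tested and *Lum* was at or near 0 everywhere. Their summed level ran from 150400 to 184300 in WT, 136600 to 147800 in *E1*, 124100 to 136800 in *E1 S1S2* and 77970 to 84770 in *6KO1*. It ran from 145700 to 170600 in *E2*, 123800 to 133300 in *E1E2*, 195500 to 208500 in *E1E2 G9Gl* and 109400 to 115000 in *6KO2*, while *Pdgfra* and *Dcn* were at most 15.5 in each library of *E1E2 G9Gl* and *6KO1*. *Thy1* was at most 4.1 in *E1 S1S2*, *6KO1* and *6KO2*, 187.5 to 208.7 in WT and 389.7 to 426.1 in *E1E2 G9Gl*. *Col3a1* held 16420.5 to 19293.2 in WT and 48321.3 to 49210 in *E1E2 G9Gl*, the condition with the highest sum. Summed markers of other cell types had their highest means in *6KO1*, as most of the p53 targets did, with *6KO2* overlapping it for endothelial markers. Epithelial markers (3 of 6 tested) summed to 33.0 to 50.2 in WT, 307.6 to 325.8 in *E1E2 G9Gl*, 588.5 to 620.8 in *6KO2* and 655.9 to 693.4 in *6KO1*. The higher sums came from *Krt8* and *Krt14*. *Epcam* went the other way, at 7.3 to 14.1 in WT, 1.1 to 2.6 in *E1E2 G9Gl*, 0 to 3.3 in *6KO2* and 0 to 3.5 in *6KO1*. Macrophage markers (4 of 6 tested) summed to 156.6 to 171.6 in WT, 154.1 to 180.2 in *E1E2 G9Gl*, 211.5 to 229.6 in *6KO2* and 617.1 to 659.8 in *6KO1*. Most of the *6KO1* sum was *Cd68*, at 466.5 to 527.5, and *Adgre1* was 0 in every library. Muscle markers (3 of 6 tested) summed to 32.1 to 38.4 in WT, 321.5 to 341.9 in *E1E2 G9Gl*, 162.4 to 187.8 in *6KO2* and 365.7 to 393.4 in *6KO1*. *Des* made up most of the sum in *E1E2 G9Gl* (292.3 to 304.1) and in *6KO1* (309 to 331.6). Endothelial markers (4 of 5 tested) summed to 11.9 to 14.9 in WT, 67.3 to 87.9 in *E1E2 G9Gl*, 100.3 to 138.1 in *6KO2* and 121.3 to 139.8 in *6KO1*. The part of these differences in the results below was not tested.

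The sequence that p53 binds is built from 10-base units, and p53 binds best to 2 such units in tandem. The windows from 250 bases before to 50 bases after the annotated starts of the genes (RefSeq, GRCm38.p6) were searched on both strands for the consensus unit, and matched 8 of the 10 genes with 11 windows. *Trp53inp1* and *Zmat3* were not among them. A unit without mismatch was found in 5 of the 11 windows, against 8.356% of all 32851 windows. A tandem pair of units, with at most 2 mismatches and both cores intact, was found in *Cdkn1a* only among these windows, against 0.158% of all windows. All matches found in these windows are shown, so that the tandem pair can be compared with the single units, with the 4-base core of each unit in capitals.
Cdkn1a tandem pair, chr17:29090928-29090947, plus strand: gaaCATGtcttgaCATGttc
Trp53 unit, chr11:69580284-69580293, plus strand: ggaCTTGccc
Mdm2 unit, chr10:117710935-117710944, minus strand: gaaCTTGcct
Ccng1 unit, chr11:40755462-40755471, minus strand: gggCAAGcct
Bax unit, chr7:45467090-45467099, minus strand: aggCAAGctt
Cdkn1a further unit, chr17:29090906-29090915, plus strand: ggaCTAGctt
The *Cdkn1a* pair carries 1 mismatch and begins 51 bases before the upstream start of the gene, outside its annotated exons. It begins 2841 bases before the downstream start of *Cdkn1a*, whose own window held no match. The matches are descriptions of these windows and not measurements of binding, and p53 elements outside the windows, such as in introns, were not searched.

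In GRCm38 coordinates, *Trp53* lies at chr11:69580359-69591873, *Cdkn1a* at chr17:29090976-29100727, *Mdm2* at chr10:117688875-117710758, *Ccng1* at chr11:40748552-40755311 and *Bax* at chr7:45461697-45466898. *Trp53inp1* lies at chr4:11156431-11174379, *Phlda3* at chr1:135766119-135769136, *Eda2r* at chrX:97333840-97377216, *Zmat3* at chr3:32334792-32366014 and *Bbc3* at chr7:16308393-16318205. All are protein coding. *Cdkn1a* exons overlap an annotated gene of the opposite strand over 273 bases and *Bax* exons overlap *Gm45808* of the same strand over 192 bases. The strand setting of the counting is not given in the sources used here, so reads in these stretches may be counted for either gene.

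*Trp53*, the gene of p53 itself, had its lowest RNA level in *E1E2 G9Gl*. WT libraries held 2499, 2590.5 and 2318 normalised counts, *E1E2* held 2899, 2811 and 3085.5, and *6KO2* held 3568, 2859 and 3053. *E1E2 G9Gl* held 1539, 1385 and 1602, below every library of the other conditions, and next above it was *6KO1* at 2001, 2096 and 1957. The other 6 conditions followed each other with overlapping libraries, from *E1 S1S2* at 2256 ± 85.3 (SD, n = 3) up to *6KO2* at 3160 ± 366.5. *Trp53* thus varied 2.09-fold between the lowest and the highest condition, less than every target except *Bax*. In bulk RNA of this kind, fewer cells that express a gene and less RNA per cell cannot be told apart.

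Among the genes that feed back on p53, *Mdm2* and *Ccng1* were highest in *6KO1* and lowest in *E1E2 G9Gl*. *Mdm2*, the ligase that degrades p53, held 3282, 3193 and 3297 normalised counts in WT, 6999, 7080.3 and 7106 in *E1E2*, 2912, 2740.4 and 2838 in *E1E2 G9Gl*, and 7698, 7714 and 7577 in *6KO1*. No 2 neighbouring conditions overlapped in the order of *Mdm2*, which ran down from *6KO1* through *E1E2*, *6KO2* (5640 ± 56.9), *E1 S1S2* (4755 ± 181), *E2* (4013 ± 109), *E1* (3460 ± 133) and WT to *E1E2 G9Gl*. *Ccng1* encodes cyclin G1, a partner of protein phosphatase 2A that acts on Mdm2. It held 2601, 3438 and 2901 normalised counts in WT, 6526, 6251 and 6458 in *E1E2*, 2159.7, 2195 and 2214 in *E1E2 G9Gl*, and 11703, 12432 and 12619 in *6KO1*. The 3 libraries of *E1E2 G9Gl* again lay below all others, and WT replicate 2 was the highest WT library.

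*Cdkn1a*, which encodes the inhibitor of cyclin-dependent kinases that arrests the cell cycle, was low in WT, *E1* and *E1E2 G9Gl*, intermediate in *E2*, and high in the other 4 conditions. Normalised counts were 217, 204 and 208 in WT, 225, 190.5 and 204 in *E1*, and 243, 234 and 242 in *E1E2 G9Gl*. They were 431, 386 and 362 in *E2*, 949, 993 and 963 in *E1E2*, and 827, 872 and 882 in *E1 S1S2*. *6KO2* held 1076, 1022 and 1049, and *6KO1* stood above every other library at 3263, 3357 and 3229. In this order only WT and *E1* overlapped. *Trp53inp1*, a stress protein that acts in autophagy and with p53 in cell death, showed the widest span of the 10 genes, 21-fold. It held 214, 269 and 249 in WT, 1210.2, 1259.9 and 1251 in *E1E2*, 216, 205 and 228 in *E1E2 G9Gl*, 1267, 1261 and 1192 in *6KO2*, and 4318, 4606 and 4677 in *6KO1*. WT and *E1E2 G9Gl* overlapped, as did *E1E2* and *6KO2*. *Zmat3* encodes an RNA-binding zinc finger protein and was lowest in *E1E2 G9Gl* at 471, 518 and 489.6, against 1056, 808 and 955 in WT, 1428, 1467 and 1515 in *E1E2*, 1384, 1247 and 1387 in *6KO2*, and 3455, 3071 and 3099 in *6KO1*. Every *E1E2 G9Gl* library was below every other library for *Zmat3*.

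The genes tied to cell death and growth signalling were less uniform. *Bax*, whose product permeabilises mitochondria, was the flattest of the 10, with 1389.5, 1694 and 1525.5 normalised counts in WT, 1282, 1264 and 1287 in *E1E2 G9Gl*, and 2357, 2530.3 and 2359 in *6KO1*, a span of 1.91-fold over all conditions. *Bbc3* encodes Puma, a BH3-only protein that triggers Bax. It held 191, 157 and 208 in WT, 176, 168 and 158 in *E1E2 G9Gl*, 349.8, 329 and 391.8 in *E1E2*, and 494, 423 and 363 in *6KO1*, and the 5 highest conditions overlapped in a chain. *Phlda3*, an inhibitor of Akt, was separate from every other condition in *6KO1*, at 2107, 2149.9 and 2061, and in *E1 S1S2*, at 921 to 1068, while *E1E2 G9Gl*, *E2*, WT and *E1* overlapped between 756 and 919. *Eda2r*, which encodes a member of the TNF receptor family and lies on the X chromosome, had an order of its own. It was lowest in *E1 S1S2* at 108, 129 and 141 and in *E1* at 129.9, 168 and 144, and held 247, 304 and 247 in WT. *E1E2 G9Gl*, at 338, 311 and 295, overlapped both *6KO2*, at 299.9, 305 and 342, and WT, whereas *E1E2* held 829, 851 and 753.5 and *6KO1* 1544, 1743 and 1689.9.

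Compared per kilobase of exon in WT, the normalised count was 974.8 for *Bax*, 848.6 for *Ccng1*, 640.8 for *Mdm2*, 610.4 for *Trp53* and 544.4 for *Phlda3*. The other 5 genes were far lower per kilobase in WT, from 87.2 for *Bbc3* down to 37.7 for *Trp53inp1*, with *Cdkn1a* at 59.0. In *6KO1* the level per kilobase of *Cdkn1a* was 924 and that of *Trp53inp1* 700.2, above that of *Trp53* at 498.9.

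**Figure D1:**
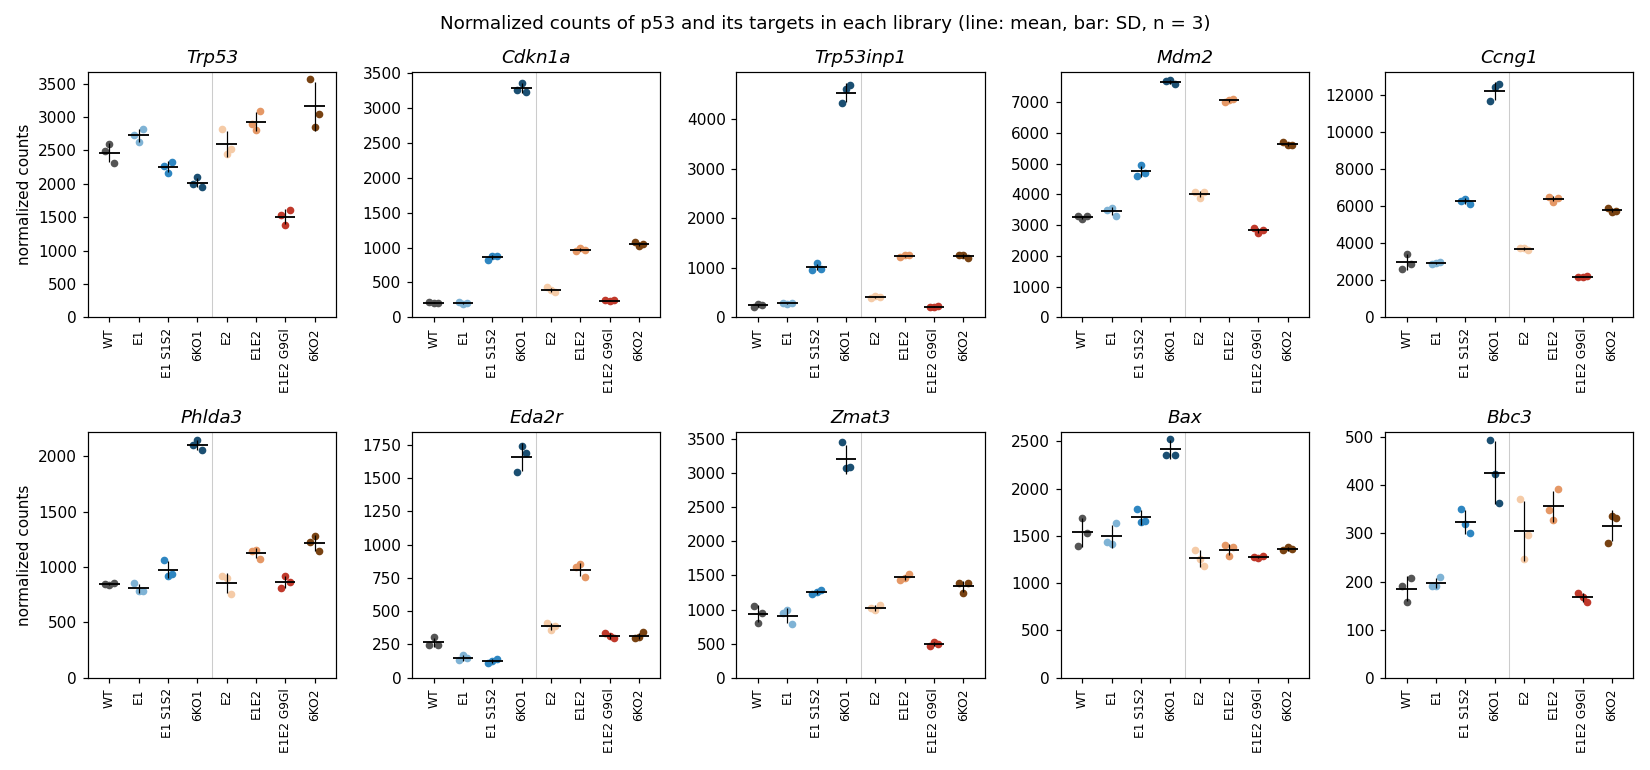
Normalised counts (vertical axis, starting at 0) of the 10 genes in each of the 24 libraries (points) by condition (horizontal axis), with the mean (line) and SD (bar) of 3 libraries. *6KO1* is highest for 9 of the 10 genes, and *E1E2 G9Gl*, in red, is lowest for 6. The shares of all genes with such an order were not counted.

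To ask which mutants changed the p53 targets at all, each mutant condition was compared with WT. A gene was called when its level differed at least 2-fold and the adjusted p of edgeR's quasi-likelihood test was at most 0.01. In *6KO1*, 8 of the 10 genes were called higher, where 20.6% of all genes tested were, with a median log2 fold change of 1.54 for the 10 genes and 0.061 for all genes. The largest were *Trp53inp1* at 4.21 ± 0.075 (SE, adjusted p = 1.78e-22, edgeR), *Cdkn1a* at 3.97 ± 0.067 (adjusted p = 7.26e-23) and *Eda2r* at 2.64 ± 0.10 (adjusted p = 1.53e-16). *Bax* was higher by 0.65, under the 2-fold minimum, and *Trp53* was at -0.29. In *E1E2*, 5 genes were called higher, where 5.51% of all genes were. These were *Trp53inp1* (2.34), *Cdkn1a* (2.21), *Eda2r* (1.60), *Mdm2* (1.12) and *Ccng1* (1.10). *Bbc3*, at 0.95 in *E1E2*, passed the fold minimum without WT replicate 3 (1.04) and without *E1E2* replicate 2 (1.00).

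In *E1 S1S2*, 3 genes were called higher, where 6.65% of all genes were, namely *Trp53inp1* (2.05), *Cdkn1a* (2.04) and *Ccng1* (1.07). *Eda2r* was called lower at -1.09, where 5.11% of all genes were. Both calls next to the minimum depended on single libraries. *Ccng1* was at 0.98 without WT replicate 1, and *Eda2r* at -0.98 without WT replicate 2 and -0.98 without *E1 S1S2* replicate 1. In *6KO2*, only *Trp53inp1* (2.34) and *Cdkn1a* (2.32) were called, both higher, where 15.3% of all genes were, and *Ccng1* at 0.96 passed the minimum without WT replicate 2 (1.07). In *E1* none of the 10 genes was called by edgeR or by DESeq2, where edgeR called 4.26% of all genes, and 2 of the 10 had an unadjusted p under 0.05, where 31.2% of all genes did. *Eda2r*, at -0.86 ± 0.11 in *E1* (adjusted p = 3.57e-06, edgeR), had an adjusted p at most 0.01 but was under the fold minimum. In *E2* none was called by edgeR or DESeq2, where edgeR called 6.11% of all genes, and 7 had an unadjusted p under 0.05, where 45.8% of all genes did. Of these 6 had an adjusted p at most 0.01 and a higher level, where 12.5% of all genes did, led by *Cdkn1a* at 0.91 ± 0.069 (adjusted p = 4.36e-10).

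In *E1E2 G9Gl* none of the 10 genes was called against WT by edgeR or by DESeq2, where edgeR called 25.2% of all genes. At an unadjusted p under 0.05, 2 were higher and 6 lower, where 36.4% and 34% of all genes were. Without the fold minimum, 5 were lower at an adjusted p of at most 0.01, where 28.3% of all genes were, and none was higher, where 30.9% of all genes were. The 5 were *Zmat3* (-0.93 ± 0.089, adjusted p = 3.11e-09, edgeR), *Trp53* (-0.71 ± 0.075, adjusted p = 1.6e-08), *Ccng1* (-0.45), *Bax* (-0.27) and *Mdm2* (-0.20). *Zmat3* passed the fold minimum without WT replicate 2, at -1.03. *Cdkn1a* was at 0.19 ± 0.072 (adjusted p = 0.0267) and *Trp53inp1* at -0.18 ± 0.081 (adjusted p = 0.0538), neither past the threshold.

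**Figure D2:**
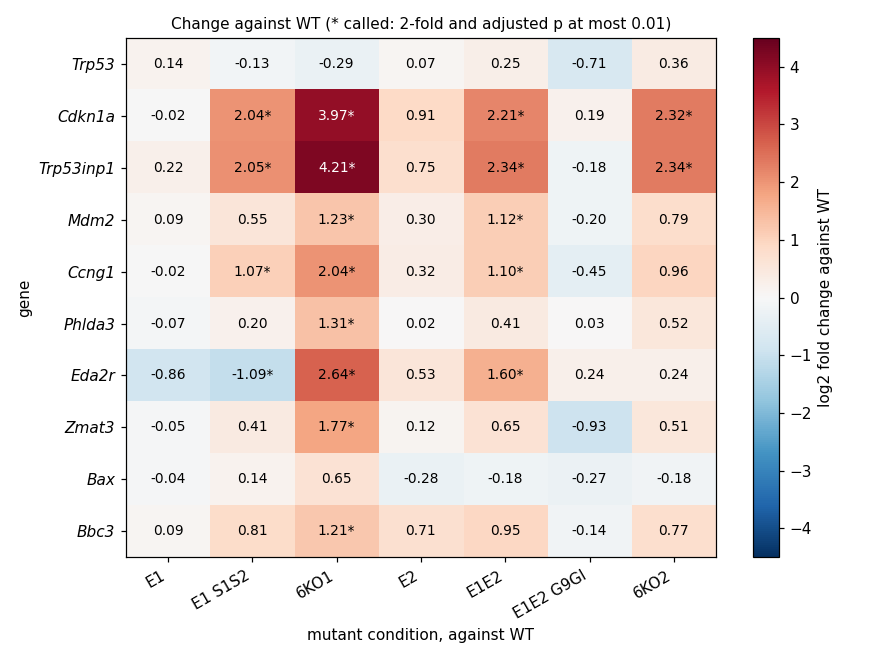
Log2 fold change against WT (colour and printed value) of the 10 genes (rows) in each mutant condition (columns), with an asterisk where the gene was called. *Cdkn1a* and *Trp53inp1* are called in 4 of the 7 columns, and the *E1E2 G9Gl* column has no asterisk.

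*E1E2 G9Gl* was then compared with each other mutant condition. Against *E1E2*, the condition before *G9a* and *Glp* were mutated, 7 of the 10 genes were called lower, where 6.78% of all genes were, and none was called higher by edgeR or DESeq2, where 14.8% of all genes were. None was higher at an unadjusted p under 0.05, where 34.4% of all genes were. The median log2 fold change was -1.34 for the 10 genes and 0.0069 for all genes. The largest were *Trp53inp1* at -2.52 ± 0.075 (adjusted p = 2.31e-18, edgeR), *Cdkn1a* at -2.02 ± 0.066 (adjusted p = 1.27e-17) and *Zmat3* at -1.58 ± 0.089 (adjusted p = 3.06e-13). *Ccng1* (-1.55), *Eda2r* (-1.36), *Mdm2* (-1.32) and *Bbc3* (-1.09) were also called. *Trp53* itself, at -0.96 ± 0.075, was just under the fold minimum and reached it without *E1E2 G9Gl* replicate 3 (-1.0). *Phlda3* was at -0.38 and *Bax* at -0.09.

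Against *6KO2*, which carries the same 4 mutations and those in *Suv39h1* and *Suv39h2*, 5 genes were called lower, where 7.19% of all genes were. These were *Trp53inp1* (-2.52 ± 0.075, adjusted p = 1.04e-17, edgeR), *Cdkn1a* (-2.13), *Zmat3* (-1.44), *Ccng1* (-1.40) and *Trp53* (-1.07). The *Trp53* call did not hold without *E1E2 G9Gl* replicate 2 (-0.99) or without *6KO2* replicate 1 (-0.97). *Mdm2*, at -0.99, was called without *E1E2 G9Gl* replicate 1 (-1.01) or without *6KO2* replicate 2 (-1.001). *Eda2r* was at -0.0032 ± 0.105 against *6KO2*, and its sign turned with the scaling factors. Against *6KO1*, 8 genes were called lower, where 10.8% of all genes were, from *Trp53inp1* at -4.39 and *Cdkn1a* at -3.78 to *Phlda3* at -1.28, and *Bax* (-0.92) and *Trp53* (-0.42) were lower by less than 2-fold.

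Against *E1 S1S2*, 4 genes were called lower, where 5.82% of all genes were, namely *Trp53inp1* (-2.23), *Cdkn1a* (-1.84), *Ccng1* (-1.52) and *Zmat3* (-1.34). *Eda2r* was called higher at 1.33 ± 0.11 (adjusted p = 4.84e-10, edgeR), where 14.2% of all genes were. *Bbc3*, at -0.95, passed the fold minimum without *E1 S1S2* replicate 3 (-1.005). Against *E1*, *Eda2r* was the only gene called, higher by 1.10 ± 0.11 (adjusted p = 9.09e-09), where 15.6% of all genes were. Against *E2*, the *Eset2* clone without 4-OHT, *Zmat3* was the only gene called, lower by 1.05 on the log2 scale (-1.05 ± 0.089, adjusted p = 5.21e-10), where 5.34% of all genes were. Without the fold minimum, 7 of the 10 genes were lower than in *E2*, where 23.1% of all genes were, among them *Trp53inp1* (-0.93), *Bbc3* (-0.86), *Trp53* (-0.78), *Ccng1* (-0.76) and *Cdkn1a* (-0.71). These comparisons share the *E1E2 G9Gl* libraries and are not independent of each other.

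**Figure D3:**
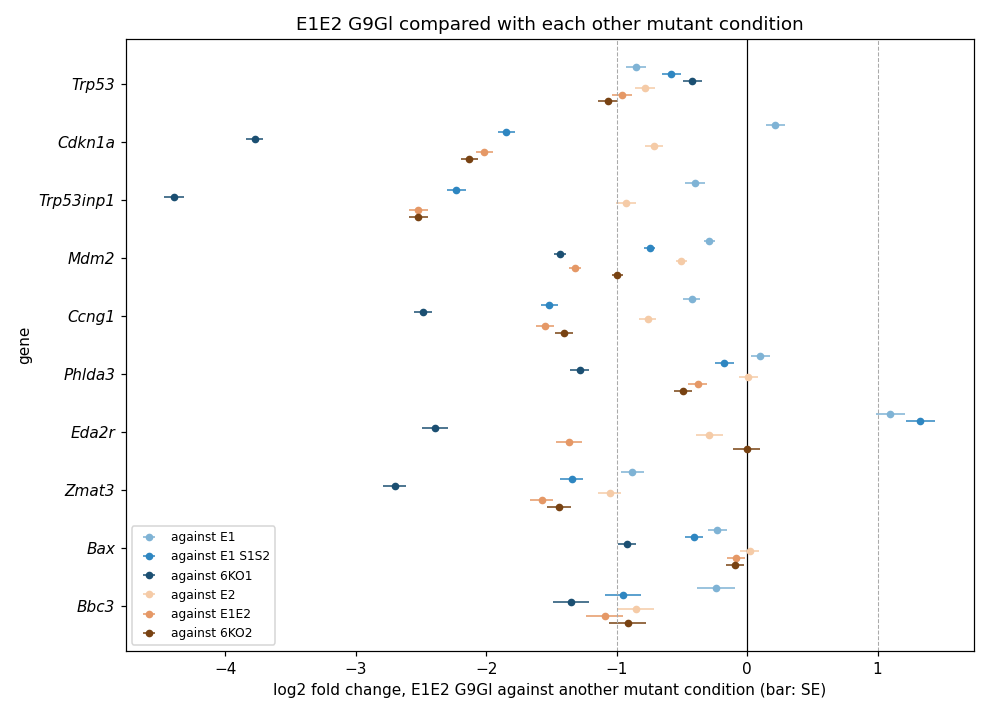
Log2 fold change of *E1E2 G9Gl* against each of 6 other mutant conditions (points, with bars for the SE) for the 10 genes, with dashed lines at a 2-fold difference. *Trp53*, *Trp53inp1*, *Mdm2*, *Ccng1*, *Zmat3* and *Bbc3* lie left of 0 in all 6 comparisons, and *Eda2r* lies right of 1 against *E1* and *E1 S1S2*.

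*E1E2 G9Gl* was thus the lowest of the 8 conditions for 6 of the 10 genes. For 4 of them, *Trp53*, *Mdm2*, *Ccng1* and *Zmat3*, every one of its libraries lay below every other library, which held for 8.42% of all genes tested. *6KO1* was the highest condition for 9 genes, all except *Trp53*, and its libraries lay above all others for 8, which held for 14.5% of all genes. The shares of all genes with their lowest mean in *E1E2 G9Gl* or their highest mean in *6KO1* were not counted. Both conditions also stood apart in the other direction. All libraries of *E1E2 G9Gl* lay above all others for 12.6% of genes, and those of *6KO1* below all others for 11%. In any remaining condition the largest such share was 3.85%, below all others in WT.

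Within the series of clones, the steps between conditions were not alike. When 4-OHT was given to the *Eset2* clone (*E1E2* against *E2*), *Trp53inp1* (1.59 ± 0.069, adjusted p = 6.37e-13, edgeR), *Cdkn1a* (1.30) and *Eda2r* (1.07) were called higher, where 2.32% of all genes were. Addition of the *Suv39h* mutations to the *Eset1* deletion (*E1 S1S2* against *E1*) gave 3 genes called higher, where 4.31% of all genes were, *Cdkn1a* (2.06), *Trp53inp1* (1.83) and *Ccng1* (1.09). From *E1 S1S2* to *6KO1*, 5 genes were called higher, where 16.3% of all genes were. *Eda2r* had the largest value of these 5, 3.72 ± 0.11 (adjusted p = 1.97e-18), followed by *Trp53inp1* (2.16), *Cdkn1a* (1.93), *Zmat3* (1.36) and *Phlda3* (1.11).

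4-OHT was given to 2 clones of which libraries without it were sequenced, and the difference between its effects was tested directly, as the change from *E2* to *E1E2* minus the change from WT to *E1*. The difference was positive with an adjusted p of at most 0.01 for 7 of the 10 genes, where 4.41% of all genes were. *Eda2r* had the largest, 1.93 ± 0.15 (adjusted p = 1.73e-09, edgeR), with a change of -0.86 in the parental clone and 1.07 in the *Eset2* clone. *Trp53inp1* differed by 1.37 ± 0.10 (adjusted p = 1.32e-09) and *Cdkn1a* by 1.32 ± 0.095 (adjusted p = 4.82e-10), followed by *Ccng1* (0.81), *Mdm2* (0.73), *Zmat3* (0.57) and *Phlda3* (0.46). In a fit of only the 12 libraries compared, *Zmat3* and *Phlda3* did not pass, at an adjusted p of 0.0352 and 0.0231. *Trp53* differed by 0.033 ± 0.10 (adjusted p = 0.912), *Bax* by 0.14 and *Bbc3* by 0.14, none of which passed.

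**Figure D4:**
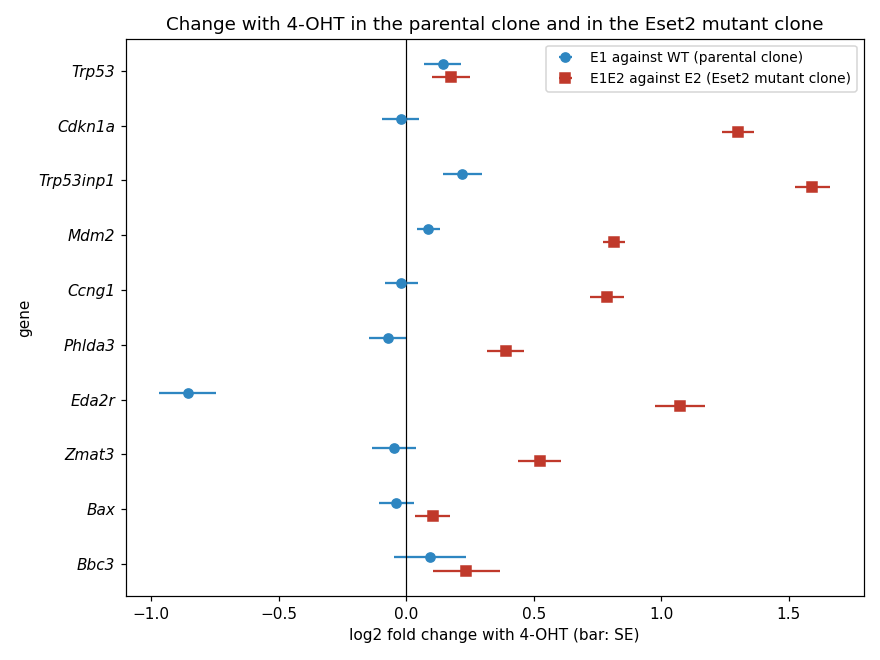
Log2 fold change with 4-OHT (horizontal axis, bars for the SE) of the 10 genes in the parental clone (*E1* against WT, circles) and in the *Eset2* clone (*E1E2* against *E2*, squares). The squares of *Cdkn1a*, *Trp53inp1* and *Eda2r* lie above 1, and the circle of *Eda2r* is at -0.86.

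Further genes of the p53 pathway were counted from lists. Of 38 other p53 targets, all tested, 12 were called higher and none lower in *6KO1* against WT by both edgeR and DESeq2, where 20.6% and 10.2% of all genes were. At an unadjusted p under 0.05, 5 were lower, where 35% of all genes were. In *E1E2* against WT 4 were called higher and 1 lower, where 5.51% and 3.22% of all genes were. In *6KO2* 6 were called higher and none lower by both tools, where 15.3% and 5.39% of all genes were, and 8 were lower at an unadjusted p under 0.05, where 31.5% of all genes were. In *E1E2 G9Gl* against WT, 5 were called higher and 3 lower, where 16.8% and 8.41% of all genes were, with a median log2 fold change of -0.18 for the list and 0.0089 for all genes. Against *E1E2*, 1 of the 38 was called higher and 8 lower in *E1E2 G9Gl*, where 14.8% and 6.78% of all genes were, with a median of -0.36 for the list and 0.0069 for all genes.

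*Pmaip1*, which encodes the BH3-only protein Noxa, held 354, 489 and 342 normalised counts in WT, 180.3, 168 and 174 in *E1E2*, and 20.5, 26.6 and 15.5 in *E1E2 G9Gl*. It was also below WT in *E1*, at 141.6 to 175.9, and in *E2*, at 68.9 to 88.8. Its log2 fold change in *E1E2 G9Gl* was -4.23 ± 0.17 against WT (adjusted p = 6e-16, edgeR) and -3.04 against *E1E2*. *Btg2*, an antiproliferative gene, held 607, 630.0 and 580.1 in WT and 145, 159.6 and 148 in *E1E2 G9Gl* (-2.01). *Btg2* was also below WT in *E1*, at 289.1 to 342.9, and in *E2*, at 331.9 to 418.2. *Ak1*, an adenylate kinase, held 1003, 1007 and 957 in *E1E2* and 188, 230.1 and 202 in *E1E2 G9Gl* (-2.26). *Gdf15*, a secreted stress cytokine, was called lower than in *E1E2* but held at most 3.2 normalised counts in *E1E2 G9Gl* and 25.8 to 28.8 in *E1E2*. *Dram1*, a lysosomal protein that promotes autophagy, went the other way, with 384, 410.5 and 359 in *E1E2 G9Gl* against 35.2, 52.0 and 41.1 in WT (3.16 ± 0.15, adjusted p = 6.67e-15, edgeR) and 71.9, 93.0 and 91.0 in *E1E2* (2.17). *Fas*, the death receptor, was also called higher than in WT (1.51), at 141, 145 and 174 against 44.8, 63.0 and 52.2, but held 773, 876 and 868 in *6KO1*.

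Of 18 regulators of p53, 16 were tested, and none was called in *E1E2 G9Gl* against WT by edgeR or DESeq2, where edgeR called 25.2% of all genes. At an unadjusted p under 0.05, 4 regulators were higher and 8 lower, where 36.4% and 34% of all genes were. *Hipk2*, a kinase that phosphorylates p53, was the only regulator called against *E1E2*, lower at -1.14 ± 0.12 (adjusted p = 1.36e-08, edgeR). Of all genes, 6.78% were called lower in that comparison and 14.8% higher. *Mdm4*, an inhibitor of p53 related to Mdm2, was at -0.73 in *E1E2 G9Gl* and -0.90 in *6KO2* against WT. *Atm*, a kinase of the DNA damage response, was at -0.26 in *E1E2 G9Gl* against WT. *Cdkn2a*, whose single gene entry counts the transcripts of both p16 and the Mdm2 inhibitor p19Arf, held 6214, 6304 and 6032 normalised counts in *E1E2 G9Gl*, 7117, 8696.5 and 6727 in WT and 3721, 4018 and 3969 in *6KO1*. None of *Mdm4*, *Atm* and *Cdkn2a* was called in these comparisons.

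Of 20 cell cycle genes that the DREAM complex represses downstream of p21, 1 was called in *E1E2 G9Gl* against WT, where 25.2% of all genes were. This was *Foxm1*, a transcription factor of the G2/M genes, at 1.65 ± 0.085 (adjusted p = 4.67e-14, edgeR), which was also called higher than WT in the other 6 mutant conditions, from 1.17 in *E2* to 1.65 in *6KO2*. Without the fold minimum, 10 of the 20 were lower in *E1E2 G9Gl* than in WT, where 28.3% of all genes were, and 13 were lower in *6KO1*, where 30.3% of all genes were. In *6KO2*, 12 of the 20 were lower by the same rule, where 25% of all genes were. Summed over the 20 genes, WT libraries held 103100 to 117200. Sums below that range were found for *6KO2* (87170 to 91600), *6KO1* (88010 to 90910) and *E1E2 G9Gl* (92660 to 95950). *E1E2* (107700 to 110600) and *E1 S1S2* (110200 to 111700), where *Cdkn1a* was called higher than in WT, stayed within it. *E2* (112400 to 117300) and *E1* (116300 to 118700) overlapped it. The part of *Cdkn1a* in these sums was not tested.

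**Figure D5:**
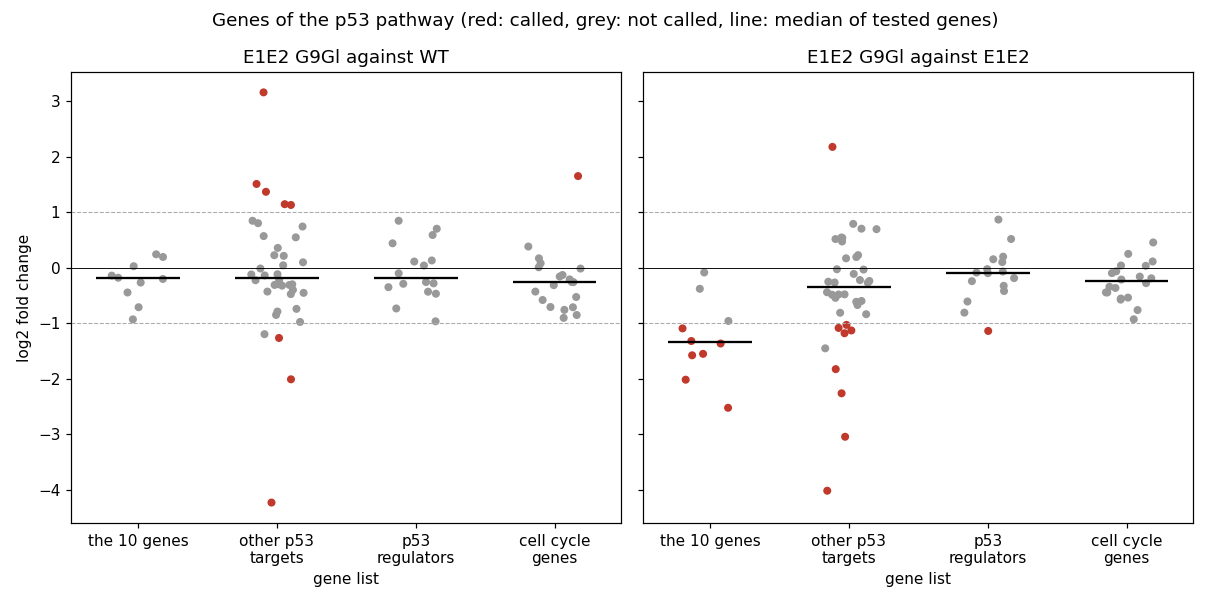
Log2 fold change of *E1E2 G9Gl* against WT (left) and against *E1E2* (right) for the 10 genes and 3 further lists (points, red where called, with a line at the median of the tested genes). The median of the 10 genes on the left is -0.19, among those of the other lists, which are -0.26 to -0.18. On the right it is -1.34, whereas the medians of the other lists are -0.36 to -0.093.

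Across the 24 libraries, the genes whose log2 level was most like that of *Cdkn1a* among all tested were *Trp53inp1* (Pearson r = 0.991, Spearman rho = 0.903), *Inka2* (0.976 and 0.950), *Ccng1* (0.969 and 0.813), *Cdc42bpg* (0.968 and 0.911) and *Orai2* (0.965 and 0.954). Of the 10 genes, *Mdm2* (r = 0.932), *Phlda3* (0.916), *Zmat3* (0.888) and *Bbc3* (0.882) came next. *Eda2r* (0.663), *Bax* (0.635) and *Trp53* (0.0993) were less alike. The libraries fall into 8 conditions that they share, and after the mean of each condition was removed r with *Cdkn1a* was -0.184 to 0.274 for the 5 most alike genes.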

How the data were processed

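Reads were trimmed by the authors with cutadapt 1.8.1, aligned to GRCm38 with STAR 2.5.2b and counted over genes and repeat elements with TEtranscripts. The authors deposited raw counts per gene, as whole numbers without normalisation, for 24 libraries (24737307 to 37419816 counts each, of which 19541909 to 31489070 fell on genes). The 1445 repeat rows and 1 row without a name (at most 0.00271% of a library) were left out of library sizes and tests. Symbols were assigned to 47224 of 47937 gene identifiers, and coordinates are those of GENCODE M21.

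Genes were filtered with filterByExpr and scaled with TMM factors, and edgeR 4.0.16 (limma 3.58.1, R 4.3.3) was used for two-sided quasi-likelihood tests over all 24 libraries with 1 coefficient per condition. P-values were adjusted by Benjamini-Hochberg over 18565 genes within each of 16 comparisons, and a call required a 2-fold difference and an adjusted p of at most 0.01. The procedure was tested on simulated counts with changes larger than 2-fold, the same spread for all genes and no outlying library. That simulation is therefore no check of calls near the 2-fold minimum. Genes named beside the 10 are, for each list, up to 4 called genes with the largest change in *E1E2 G9Gl* against WT and against *E1E2*, plus *Cdkn2a*, *Mdm4* and *Atm*, and the 5 genes most correlated with *Cdkn1a*. The 10 genes and the lists were chosen with earlier results of these data known. The KMT genes were added as a check of the labels.

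Alternatives were DESeq2 1.42.0, RLE factors, no filter, no fold minimum, only the libraries compared, the replicate number as a block, and each library left out in turn. The test of the difference between clones in the effect of 4-OHT was added after the data were seen, with the same alternatives. Figures were drawn with matplotlib 3.10.9.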

Additional observations from a re-analysis of the deposited data

Results flagged for a closer look

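For 7 of the 10 genes the change with 4-OHT differed between the *Eset2* clone and the parental clone, by a test of the difference itself (edgeR, adjusted p at most 0.01). The log2 difference was 1.93 for *Eda2r*, 1.37 for *Trp53inp1*, 1.32 for *Cdkn1a*, 0.81 for *Ccng1*, 0.73 for *Mdm2*, 0.57 for *Zmat3* and 0.46 for *Phlda3*, with the change in the *Eset2* clone minus that in the parental clone positive for each. *Zmat3* and *Phlda3* did not pass in a fit of only the 12 libraries compared (adjusted p = 0.0352 and 0.0231, edgeR). Of all genes tested, 8.88% differed between the clones in either direction. The clones may also differ in the added Cre construct and in puromycin selection, and the part of these was not tested.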

How the results depend on the processing

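The calls of the 10 genes did not change with DESeq2, RLE factors, no filter on low counts, or a fit of only the 6 libraries compared. Replicate numbers did not pair the samples, since in no comparison did all same-numbered libraries have deviations correlated above 0.1 and only 12 of 24 libraries correlated best with their own number, and the replicate block changed none of the 160 values past or back over the thresholds. *Eda2r* in *E1E2 G9Gl* against *6KO2* was 0.022 with RLE factors and 0.024 with DESeq2. Without the filter, *Phlda3* and *Bax* in *E1E2 G9Gl* against *E2* were -0.011 and -0.0033. In fits of only the 6 libraries compared, the genes of all tested that were called fell from 421 to 258 higher in *E1* against WT, from 538 to 329 higher and 596 to 375 lower in *E2* against WT, and from 430 to 257 higher in *E1E2* against *E2*.

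Without the fold minimum, the genes with higher levels against WT numbered 6 in *E1 S1S2* (19.9% of all genes), 6 in *E2* (12.5%), 9 in *E1E2* (16.3%), 8 in *6KO2* (29.5%) and 9 in *6KO1* (35.9%). Those with lower levels numbered 5 in *E1E2 G9Gl* (28.3%), 1 in *E2* (14.4%), 1 in *6KO1* (30.3%) and 1 in *E1* (6.6%). *Eda2r* was the 1 lower gene in *E1 S1S2*, where 21.9% of all genes were lower. For *E1E2 G9Gl* the lower genes numbered 6 against *E1* (26.4% of all genes), 8 against *E1 S1S2* (23.2%), 7 against *E2* (23.1%), 8 against *6KO2* (21.3%), 9 against *E1E2* (24.7%) and 10 against *6KO1* (26.4%). For the steps, 7 were higher in *E1E2* against *E2* (6.58%), 7 higher (16.1%) and 1 lower (17.3%) in *E1 S1S2* against *E1*, and 9 higher in *6KO1* against *E1 S1S2* (30.4%).

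With each library left out in turn, the genes called higher against WT numbered 2 to 3 in *E1 S1S2*, 5 to 6 in *E1E2* and 2 to 3 in *6KO2*, and those called lower 0 to 1 in *E1 S1S2* and 0 to 1 in *E1E2 G9Gl*. For *E1E2 G9Gl* those called lower numbered 4 to 5 against *E1 S1S2*, 7 to 8 against *E1E2* and 4 to 6 against *6KO2*. The number whose change with 4-OHT differed between clones stayed at 7, but it was 5 in the fit of only the 12 libraries compared. Values that changed sign ranged as follows. In *E1* against WT, *Cdkn1a* was -0.083 to 0.033, *Ccng1* -0.11 to 0.097, *Zmat3* -0.15 to 0.046, *Bax* -0.11 to 0.039 and *Bbc3* -0.014 to 0.19. *Phlda3* was -0.030 to 0.10 in *E2* and -0.011 to 0.071 in *E1E2 G9Gl* against WT, and -0.074 to 0.056 in *E1E2 G9Gl* against *E2*. *Bax* was -0.029 to 0.070 against *E2*, *Eda2r* -0.057 to 0.060 against *6KO2*, *Gdf15* -1.52 to 0.60 against WT, and the difference between clones for *Trp53* -0.010 to 0.094.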
